A study of Mus musculus with 2 samples.

Results

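The genes described here are 9 that are known for the homing or the identity of naive T cells: Ccr7, Igfbp4, Dapl1, Tcf7, Lef1, Satb1, Bcl11b, Ikzf1 and Foxp1. They were found by gene name among the noncontrol probes of a mouse expression array, where they had 18 of 55681 probes. All 9 were above background on both arrays, which held 27665 named genes, 14378 of them above background on both. RNA came from splenic CD4 T cells of female mice of the OVA-TCR-Tg strain, which carry a transgenic receptor for ovalbumin (OVA), and cells were sorted after 24 h of culture with OVA at 0.1 mg/mL. The naive-only culture held spleen cells at 2500000 per mL. In the co-culture, spleen cells that had first been stimulated with the superantigen TSST-1 at 0.1 μg/mL, and that the labels call anergic, were mixed with an equal number of fresh spleen cells at 1250000 per mL. Whether sorting parted fresh from pre-stimulated cells is not stated in the labels, so RNA of either kind may be on the co-culture array. The age and number of the mice are not given in the sources used here. With 1 array per culture, the differences lack a replicate check and no test of the cultures could be made.

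A naive T cell circulates through lymph nodes and spleen until it meets its antigen. CCR7, the receptor for the chemokines CCL19 and CCL21, guides it into the T cell zones, and once a T cell is activated it makes less of the genes of this resting state and goes on to effector genes. The transcription factors TCF-1 (Tcf7), LEF-1, BCL11B, SATB1, Ikaros (Ikzf1) and FOXP1 set up T cell identity in the thymus or keep it in resting cells. In bulk RNA, fewer cells that express a gene and less RNA per cell cannot be told apart.

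Each member was read through short designed oligonucleotides. Of the 5 members with several measured probes, Ikzf1 and Foxp1 had probes on different parts of the gene that gave different values. The probes of Tcf7, Lef1 and Bcl11b gave similar values. The leading 30 of the 60 bases of some member probes are shown because each value holds for the stretch of transcript that was measured. They are written 5′ to 3′ as in the array's design, with positions of the shown bases on mm9 taken from the strand that the design gives, and probes of a gene are numbered from the brightest.
Ccr7 (chr11:99005581-99005610, minus strand): cagccactgatacctttcctcatgttctgc
Igfbp4 (chr11:98913334-98913363, plus strand): gagaagagaaacctcattcttggagtgaga
Dapl1 (chr2:59342824-59342853, plus strand): tctggagaaggctgctccaatgaagagggc
Tcf7 probe 1 (chr11:52066144-52066173, minus strand): ttttttcattctcgctgtagatagcctgaa
Tcf7 probe 2 (chr11:52066768-52066797, minus strand): ccaatacttcttggaccaagaatacctggt
Ikzf1 probe 1 (chr11:11672828-11672857, plus strand): aggaagctcatgtgcatctggtgctatggc
Ikzf1 probe 2 (chr11:11661344-11661373, plus strand): cagaaatttcttggtaagagttaaatgttt
Ikzf1 probe 3 (chr11:11669493-11669522, plus strand): ttgagtgtaacatgtgtggttatcacagcc
Foxp1 probe 1 (chr6:98880114-98880143, minus strand): ccagattttgaccatgacagagattacgaa
Foxp1 probe 3 (chr6:98956709-98956738, minus strand): tgtgcctgcattttcttttataatgaaggg

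The comparison sets CD4 T cells of the culture with anergic cells against those of naive cells alone. Of the 9 members, 4 were at least 2-fold lower in the co-culture: Ccr7, Igfbp4, Tcf7 and Ikzf1. Another 4, Foxp1, Bcl11b, Satb1 and Lef1, were lower by less than 2-fold, and Dapl1 was nearly level. None was at least 2-fold higher. Over all 14378 measured genes, 5.54% were at least 2-fold lower and 7.72% at least 2-fold higher, and 54.4% had a difference below 0. The median log2 difference, co-culture minus naive-only, was -0.58 over the members and -0.05 over all measured genes, whose quartiles were -0.37 and 0.33. The members were proposed with earlier results of these arrays known, so the count describes these genes and carries no weight as a test.

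**Figure D1:**
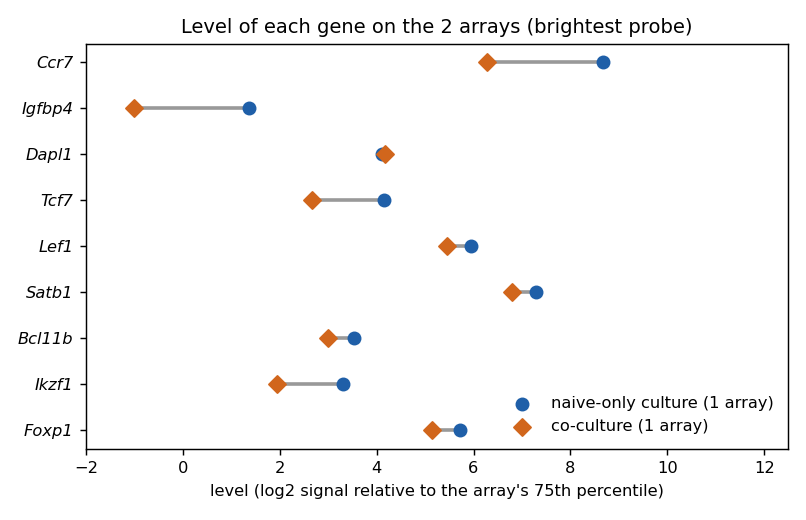
Level of each member on the naive-only array (circles) and the co-culture array (diamonds), as log2 signal relative to the array's 75th percentile, 1 array each, brightest probe. The diamonds of Ccr7 and Igfbp4 lie more than 2 log2 units left of their circles, and those of Dapl1 overlap.

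Levels below are log2 of the background-subtracted signal relative to the 75th percentile of the array, and the error given with each difference is technical: it comes from the error model of the scanner software and leaves out the spread between cultures. It was near 0.20 (log2) for most measured genes.

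The homing receptor Ccr7 and Igfbp4 had the lowest differences of the 9, closer to each other than their technical error, and their order turned with quantile normalization and in the authors' deposited table. Ccr7 gave a signal of 122689 intensity units in naive-only and 23398 in co-culture cells, levels of 8.68 and 6.28. The log2 difference was -2.40 ± 0.20, or 5.28-fold lower, and 1.02% of measured genes had a lower one. The difference was thus near the low end of those measured, and it rests on 1 probe.

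Igfbp4 encodes a secreted protein that binds insulin-like growth factors, and its transcript is known from naive T cells. Its signal was 777 in naive-only and 150.2 in co-culture cells, levels of 1.38 and -1.0. The log2 difference was -2.38 ± 0.21, or 5.21-fold lower, close to that of Ccr7. It also rests on 1 probe, and a correction that adds an offset to every signal (normexp) gave -1.96. The genes lie near each other: the Igfbp4 and Ccr7 probes were 92.2 kb apart on chromosome 11, in opposite orientation.

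Dapl1, a small gene of the death-associated protein family whose transcript marks resting T cells, did not follow them. Its signal was 5153 in naive-only and 5454 in co-culture cells, levels of 4.11 and 4.18, and the log2 difference of 0.07 ± 0.20 was smaller than its technical error. Of all measured genes, 59.9% had a lower difference.

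The related factors TCF-1 and LEF-1, which bind the same DNA element through an HMG box, differed in size. Tcf7 probe 1 (chr11:52066114-52066173) read 5325 in naive-only and 1901 in co-culture cells, levels of 4.15 and 2.66. Its log2 difference was -1.5 ± 0.20, or 2.82-fold lower. The other Tcf7 probe (chr11:52066738-52066797), further upstream in the gene, went from 966 to 312 units and gave -1.64 ± 0.21. Both Tcf7 probes were thus past 2-fold, with an SD of 0.10 between them.

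Lef1 was lower by less. Its probe 1 (chr3:130926200-130926259) read 18469 in naive-only and 13281 in co-culture cells, a log2 difference of -0.48 ± 0.20, or 1.40-fold lower. Probe 2, whose 60 bases span 18162 bases of the genome and so cross an intron, gave -0.44 ± 0.20. The Tcf7 difference minus that of Lef1 was -1.01 ± 0.29 (technical error), and the spread between the probes of each gene was smaller than this gap.

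Satb1 and Bcl11b, both nuclear factors that shape chromatin in developing T cells, were alike in size to Lef1. Satb1 (chr17:51879137-51879196) read 46518 in naive-only and 33228 in co-culture cells, a log2 difference of -0.49 ± 0.20. Bcl11b, which fixes the T cell fate in the thymus, read 3448 and 2400 at its brighter probe (chr12:109153847-109153906), a log2 difference of -0.53 ± 0.20. Its second probe (chr12:109148932-109148991), nearer to the end of the gene, gave -0.46 ± 0.20. Each of these values is between 2 and 3 times its technical error, and between 16.4% and 18.6% of all measured genes had lower differences than Bcl11b, Satb1 and Lef1.

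Ikzf1, which encodes the zinc finger factor Ikaros, had 3 probes, all lower on the co-culture array. Probe 1 (chr11:11672828-11672887), nearest of the 3 to the end of the gene, read 2970 in naive-only and 1151 in co-culture cells, a log2 difference of -1.38 ± 0.20, or 2.60-fold lower. Probe 3 (chr11:11669493-11669552) went from 326 to 147 units, at -1.16 ± 0.21. Probe 2 (chr11:11661344-11661403), which the array design assigns to an Ensembl transcript and not to the RefSeq one of the other probes, went from 896 to 507, at -0.83 ± 0.20, short of 2-fold. The mean of the 3 probes was -1.12. Their SD of 0.27 was larger than that of 74.5% of the 3580 genes with several measured probes, whose median was 0.13.

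Foxp1, a forkhead factor that holds naive T cells in quiescence, had the widest spread between probes. Of its 5 probes, the 2 brightest lie nearest to the end of the gene. Probe 1 (chr6:98880084-98880143) read 15829 in naive-only and 10665 in co-culture cells, a log2 difference of -0.58 ± 0.20, and probe 2, which crosses an intron, gave -0.44 ± 0.20.

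The remaining Foxp1 probes gave other values. Probe 3 (chr6:98956679-98956738), assigned by the design to a GenBank sequence named Foxp1 and not to a RefSeq transcript, went from 256 to 110.0 units, at -1.23 ± 0.21. Probe 4 read 103 and 101, at -0.03 ± 0.22. Probe 5, assigned to another GenBank sequence, did not pass background in either sample. The SD over the 4 measured probes was 0.49, larger than that of 90.0% of genes with several measured probes. Probes 3 and 4 were dim, and with normexp they stood at -0.91 and 0.01, so the gap between them was narrower there.

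**Figure D2:**
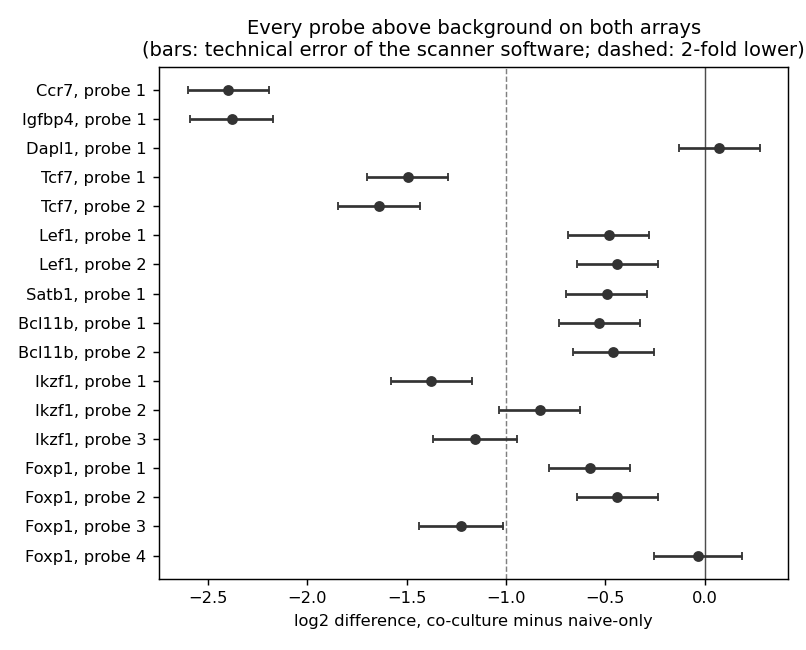
Log2 difference (co-culture minus naive-only) of the 17 member probes above background on both arrays, with bars for the technical error. All probes but that of Dapl1 have negative values; the probes of Tcf7, Lef1 and Bcl11b lie close together, and those of Foxp1 run from -1.23 to -0.03.

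Of the 17 measured probes, 16 had negative differences, the exception being that of Dapl1. The 5 members with several measured probes each kept 1 sign over them. That of Foxp1 probe 4 is within its error, and with normexp it was above 0.

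**Figure D3:**
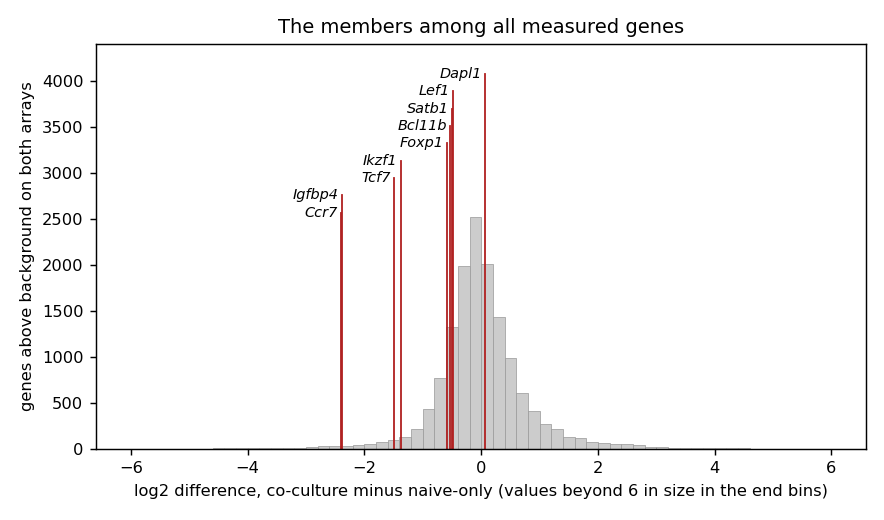
Distribution of log2 differences (co-culture minus naive-only) over the 14378 genes above background on both arrays (grey bars, genes per bin of 0.2), with the members as red lines. Ccr7, Igfbp4, Tcf7 and Ikzf1 lie in the lower tail, the other members within 1 log2 unit of 0.

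Markers of some other cell types were lower along with these genes. Ccr7 is also made by B cells and mature dendritic cells, and Ikzf1 and Foxp1 by B cells. Of 13 B cell markers, 11 were measured on both arrays and all 11 were at least 2-fold lower in the co-culture, with a median of -1.76. With normexp, Cd22 and Cr2 were at -0.57 and -0.91, short of 2-fold. The other 2, Pax5 and Fcrla, passed background in the naive-only sample alone. The summed signal of the 13, in units of the 75th percentile, was 55.7 in naive-only and 12.3 in co-culture cells, 4.54-fold lower. Ms4a1 was at -5.03. Of 13 dendritic cell and class II genes, all 9 measured were below 0 and 5 at least 2-fold lower, with a median of -2.79. Ccl17 and Ccl22 passed background in the naive-only sample alone, and Xcr1 and Cd209a in neither. Their summed signal was 303 in naive-only and 168 in co-culture cells, of which Siglech (-0.12) made up 163 and 150.2. Without Siglech, a sum chosen after seeing the data, it was 140 and 17.3, or 8.09-fold lower. The brightest genes of that sum in the naive-only sample were the class II genes H2-Eb1 and Cd74, at levels of 6.19 and 5.74. The 4 measured genes within 2-fold were Siglech, Itgax (-0.46), Zbtb46 (-0.86) and Ly75 (-0.08). The part of B cells and dendritic cells in the values of Ccr7, Ikzf1 and Foxp1 was not tested.

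Markers of the sorted cells were present on both arrays. All 10 CD4 T cell markers were measured and none differed by 2-fold, with a median of 0.36 and a summed signal of 1266 in naive-only and 1536 in co-culture cells. Of the 10, 8 were above 0, with Cd4 at 0.35, Cd3e at 0.37 and Thy1 at 0.63. The other 2 were below 0, and the lower of them was Cd5 at -0.92. Cd8a and Cd8b1 were above background on both arrays, at 0.52 and -0.56. Of the 9 macrophage markers, 7 were measured and all were below 0, and Cd14 (-1.71) and Lyz2 (-1.12, but -0.38 with normexp) were at least 2-fold lower. Of the 6 natural killer cell markers, only Tyrobp was measured on both arrays, at -1.5. Klrd1 passed background in co-culture cells alone, at least 4.62-fold higher there, and Ncr1 and Klra8 in naive-only cells alone, at least 2.38-fold and 1.57-fold higher there. Of the 5 plasma cell markers, Jchain and Mzb1 were at least 2-fold lower and Xbp1 at least 2-fold higher. Of the 4 measured neutrophil markers, 3 were above 0 and within 2-fold, and the median was 0.21. The fourth, Camp, was at -1.51 (-0.92 with normexp). The erythroid list held 1 measured gene, which was within 2-fold.

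Other genes of naive T cell traffic did not share 1 direction. The list of homing and exit genes had 14 of 16 measured, 4 at least 2-fold lower and 2 at least 2-fold higher, with a median of -0.08. Gpr183, an oxysterol receptor that places lymphocytes within the spleen, was at -3.33, S1pr1, the receptor by which T cells leave lymph nodes, at -1.38 ± 0.21, and Cxcr5, the receptor for follicles, at -1.27. Klf2, a factor that drives S1pr1, was at -1.04 ± 0.20, and at -0.99 when arrays were scaled on their medians. B cells make Gpr183 and Cxcr5 too. The integrin genes Itgb7 and Itga4, whose products pair as a receptor for gut homing, were higher at 1.62 and 1.40.

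The Ccr7 difference minus that of S1pr1 was -1.02 ± 0.29 (technical error). Ccl19, which encodes a ligand of CCR7, was dim on both arrays (-0.17 ± 0.25). Its sign was not settled: its other probe was at 0.49, and normexp gave 0.23 for the gene. Ackr4, a scavenger receptor for the same ligands, was not well above background on either.

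The list of other genes linked to naive or resting T cells, not all of them highest there, was mixed as well. Of 31 genes, 30 were measured, 6 at least 2-fold lower and 5 at least 2-fold higher, with a median of -0.04. The lower genes were led by Bach2, a repressor of effector genes (-2.45), Ms4a4b (-1.78), Slfn2 (-1.68), Id3, an inhibitor of E proteins (-1.61), and Actn1 (-1.25). The sixth, St8sia1, was at -1.02 and short of 2-fold with normexp, at -0.78. The part of B cells, whose markers were lower, in the Bach2 value was not tested. The higher genes were Myb (2.17), the interleukin 7 receptor gene Il7r (1.76), the glucocorticoid-induced Tsc22d3 (1.69), Ly6c1 (1.14) and Pik3ip1 (1.07, but 0.70 in the setting that lowers it most). Ly6c1 has probes that disagree, at 0.01 and 1.14, and belongs to a family of near-identical genes, so its value is uncertain as to the gene. Foxo1, the forkhead factor upstream of Ccr7, Klf2 and Il7r in resting T cells, was at 0.30 ± 0.20. Taking both lists, 10 of 44 measured genes were at least 2-fold lower and 7 at least 2-fold higher. Over all measured genes the shares were 5.54% and 7.72%.

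**Figure D4:**
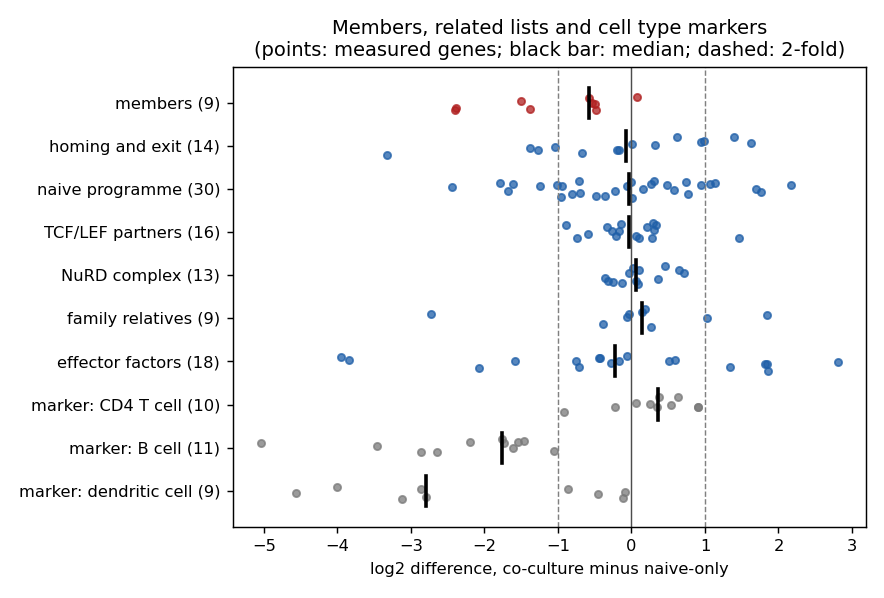
Log2 difference (co-culture minus naive-only) of each measured gene in the members (red), 6 related lists (blue) and 3 marker lists (grey), with the number of genes in brackets and the median as a black bar. The members' median is -0.58, those of the 6 related lists lie between -0.22 and 0.15, and that of the B cell markers is -1.76.

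Partners of the member factors were mostly within 2-fold. Of 18 genes for beta-catenin, its regulators and the other TCF genes, 16 were measured, none at least 2-fold lower, with a median of -0.04. Over all measured genes 5.54% were at least 2-fold lower and 7.72% at least 2-fold higher. A short list with none is near these shares. The lowest of the list, Tle1, was at -0.89, and its 4 measured probes ran from -0.89 to 0.12. Ctnnb1, which encodes beta-catenin, the co-activator of TCF-1 and LEF-1, was at 0.07 ± 0.20 and Tcf7l2 at 0.10 ± 0.21. Tcf7l1 was at 1.47 ± 0.35, but at a level of -3.87 on the naive-only array, near the lowest level above background (-4.03), and with normexp it was at 0.54. Axin2, a target of this pathway, was at -0.74 ± 0.29. It was dim too, at levels of -2.24 and -2.98, and with normexp it was at -0.31. All 13 subunit genes of NuRD, the remodelling and deacetylase complex that Ikaros and BCL11B bind, were measured and none passed 2-fold. Their differences ran from -0.36 to 0.72, with Chd4, its main ATPase, at -0.03.

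Close relatives of the members mostly went their own way. Among the Ikaros family, Ikzf2 (Helios) was at 1.03 ± 0.20 (0.98 with normexp) and Ikzf5 (Pegasus) at -0.04. Ikzf3 (Aiolos) was dim on both arrays, at 0.15 ± 0.26. Ikzf4 (Eos) was at 0.19, but its 3 probes ran from -0.42 to 0.19. Ikzf1 was thus the only one of the 5 at least 2-fold lower, against 5.54% of all measured genes. The Ikzf1 difference minus those of its relatives ran from -2.41 ± 0.29 (Ikzf2) to -1.34 ± 0.29 (Ikzf5). Foxp4 was at -0.06 and Foxp3 at -0.39, while Foxp2 was not well above background in either sample.

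Bcl11a, which B cells and dendritic cells express, was at -2.73 ± 0.23, well below Bcl11b, with levels of 0.74 and -1.99. The part of those cells in the Bcl11a value was not tested. Of the other insulin-like growth factor binding protein genes, Igfbp2 was dim on both arrays (0.26 ± 0.40). Igfbp6 passed background in the co-culture sample alone, at least 3.51-fold higher there. Igfbp1, Igfbp3, Igfbp5 and Igfbp7 were not well above background on either. Dap, the relative of Dapl1, was at 1.85.

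Transcription factors of effector T cells were split. Of 18 measured, 4 were at least 2-fold lower and 5 at least 2-fold higher, with a median of -0.22. Among all measured genes these shares were 5.54% and 7.72%. Bcl6, the factor of follicular helper cells, which TCF-1 and LEF-1 are known to promote, was at -3.95, Eomes at -3.84 and Rora at -1.58. The part of B cells, whose markers were lower, in the Bcl6 value was not tested. Maf (2.80), Nfil3 (1.86), Prdm1 (1.84), Zbtb32 (1.82) and Gata3 (1.33) were higher. Prdm1 encodes Blimp-1, and Gata3, the factor of type 2 helper cells, is a known target of TCF-1.

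Promoter sequence was available for 8 of the 9 members, as 19 windows from RefSeq (GRCm38.p6), some of which overlap, and not for Ccr7. The 250 bases before the annotated start are shown for Igfbp4, which was 5.21-fold lower, for Dapl1, which was level, and for Bcl11b, because its window holds the TCF/LEF letters. Capitals mark matches on either strand to CTTTGA (TCF/LEF), GTAAACA (FOXO), TGGGAA (Ikaros), TGTGGT (RUNX) and CGGAAG (ETS).
Igfbp4 (chr11:99040994-99041243, plus strand): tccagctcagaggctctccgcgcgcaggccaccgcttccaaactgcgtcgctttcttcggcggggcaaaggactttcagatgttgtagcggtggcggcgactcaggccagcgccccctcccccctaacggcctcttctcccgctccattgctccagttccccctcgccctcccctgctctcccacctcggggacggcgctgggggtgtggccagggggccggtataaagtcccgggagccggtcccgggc
Dapl1 (chr2:59484403-59484652, plus strand): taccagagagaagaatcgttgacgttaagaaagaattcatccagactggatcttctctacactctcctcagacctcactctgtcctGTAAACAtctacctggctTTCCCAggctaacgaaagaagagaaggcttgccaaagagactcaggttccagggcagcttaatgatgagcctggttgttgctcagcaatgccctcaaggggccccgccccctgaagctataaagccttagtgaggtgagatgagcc
Bcl11b (chr12:108003415-108003664, minus strand): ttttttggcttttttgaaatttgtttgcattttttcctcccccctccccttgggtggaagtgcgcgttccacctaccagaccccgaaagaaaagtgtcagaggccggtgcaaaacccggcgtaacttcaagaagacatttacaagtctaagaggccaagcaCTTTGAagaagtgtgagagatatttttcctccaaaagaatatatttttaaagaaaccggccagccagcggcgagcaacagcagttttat
The Igfbp4 window held none of the 5 motifs, had 69.2% G or C bases and 22 CpG, against medians of 52.4% and 6 over all 32851 windows. The Dapl1 window had 50% G or C, 4 CpG, and 1 match each to the FOXO and the Ikaros letters. Over the 19 member windows, the TCF/LEF letters were in 3 (windows of Bcl11b, Foxp1 and Lef1), the Ikaros letters in 2 and the FOXO and ETS letters in 1 each. Over all windows the shares were 13.8% for TCF/LEF, 21.6% for Ikaros, 3.17% for FOXO, 13.6% for ETS and 14.0% for RUNX, which no member window held. Such matches are letters in a window, not binding sites.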

How the data were processed

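Gene expression was measured on 2 single-colour (Cy3) Agilent arrays, 1 per culture, both on 1 slide. An Ovation V2 amplification step, which can alter relative levels, came before labelling per the labels' protocols. The deposited scanner files hold a background-subtracted, detrended intensity per spot, made with Feature Extraction 10.7.1.1 per the file headers, whereas the submitters' processing notes name 9.5.1.1. The deposited value table holds the authors' intensity on a linear scale, normalized by an unstated method; its sorted columns match within 0.0369%, its medians were both 14.5, and its log2 differences correlate at 0.999 with those used here.

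Processed signals were put on a log2 scale, spots of a probe were averaged, and the 75th percentile of all noncontrol probes was subtracted (299.4 intensity units for naive-only, 301.3 for co-culture). The brightest probe stood for its gene, which was measured if that probe passed background on both arrays. No spot was saturated. Genes were counted at 2-fold, with no test. A gene above background on 1 array only got a bound, from the dim array's detection floor or the probe's own signal there, whichever was higher. Of 36743 named probes, 27235 were matched by accession to RefSeq (GRCm38.p6, used for names and promoters). Probe positions are on mm9. Members and lists were chosen with earlier results of these data known. Text names all members, list genes past 2-fold (up to 5 per direction, 4 per marker list) and some further genes, with a few others shown for their role and chosen after their values were seen. Some genes and 1 probe sequence that this rule covers are not reported here. Calculations used Python 3.11.15, pandas 2.3.3 and limma 3.58.1, and were tested on simulated data. With 1 array per culture, the number of arrays limits the precision.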

Additional observations from a re-analysis of the deposited data

How the results depend on the processing

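Other settings were scaling on the array median or on probes above background, quantile normalization, normexp background correction, the authors' deposited table, leaving out outlier spots, averaging a gene's measured probes, no filter on background, and keeping brighter genes. Under all of them, Ccr7 (-2.40 to -2.35), Igfbp4 (-2.38 to -1.96), Tcf7 (-1.57 to -1.44) and Ikzf1 (-1.38 to -1.12) stayed at least 2-fold lower, except that Igfbp4 drops out when only brighter genes are kept. Lef1 (-0.49 to -0.38), Satb1 (-0.50 to -0.43), Bcl11b (-0.53 to -0.48) and Foxp1 (-0.58 to -0.50) stayed within 2-fold, and Dapl1 lay between 0.07 and 0.12. No sign changed among these 9 values. Not every setting is a separate check. Dropping the background filter or keeping brighter genes leaves a gene's own value as it was. Averaging probes does the same for genes with 1 measured probe. The deposited table gave nearly the values of quantile normalization (Ccr7 at -2.35 in both). Of 44 measured homing and naive programme genes, 10 were at least 2-fold lower, and 16 were at least 1.5-fold lower. The shares over all measured genes were 5.54% and 14.5%. Among the 26 brighter ones, 6 were at least 2-fold lower, against 2.68% of all brighter measured genes. Without a filter on background the median of all genes moved by 0.16, because dim genes are added, to 0.11, and Dapl1 then lay below it. No paired analysis was possible because each culture has 1 array. Differences of dim genes such as Igfbp4 are limited by signal over background, and the technical errors leave out the spread between cultures.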

Other observations

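Probes within 100 kb of the members' own probes give values for the neighbouring genes, and none of this was part of the comparison. Between the Igfbp4 and Ccr7 probes the array held 2 probes, both for Tns4, of which 1 was above background on both arrays, at -0.08. On the outer sides, Smarce1, a chromatin remodelling gene, was at -0.36 and -0.11 at its 2 probes, and Top2a, the topoisomerase gene of dividing cells, at 1.88. Rara and Krt222, further out, were at 0.57 and 0.38 at their brighter probes. Among 3 probes for the plus strand of an unnamed transcript about 51 kb from Ccr7, 1 passed background in naive-only cells alone and another in co-culture cells alone. Next to Ikzf1, the DNA repair gene Fignl1 was at 0.87 and 0.89, and BC028789, on the other side, at -0.65.

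A probe for the Ensembl transcript ENSMUST00000150973, on the opposite strand 32.8 kb from the nearest Tcf7 probe (chr11:52099621-52099680), was at -2.04, with levels of -1.01 and -3.05, so it was lower, as Tcf7 was, but dim on the co-culture array. Skp1a, on the other side of Tcf7, was at -0.48 at its brighter probe, 6.43 kb away, with levels of 6.46 and 5.97. On the side of Satb1, C230085N15Rik, 17.4 kb from the Satb1 probe, was at -0.87, with levels of 3.31 and 2.45. Hadh and Cyp2u1, near Lef1, were at 0.51 and, at the brightest of the Cyp2u1 probes, -0.33. The choice of these neighbours came after seeing their values.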
